A study of Mus musculus with 16 samples.

Results

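Txnip and Arrdc4, a pair of alpha-arrestin genes, and Mlx, Mlxip and Mlxipl, which encode the glucose-responsive factors that act on them, were followed in mIMCD3 cells given doxycycline (DOX). Txnip was chosen by its DOX difference, already known from these same libraries, and the other 4 genes for their known link to it, which makes 5 genes of the 54393 in the count table. The cells are a mouse kidney epithelial line from the inner medullary collecting duct of an SV40 transgenic mouse and are labelled wild type. All 4 groups were kept for 10 days on permeable supports and then received vehicle (DMSO) or 2 µg/mL DOX, renewed each day, for 3 or 6 days, with 4 libraries per group and 16 in all. A single culture line stands behind every library, and nothing in the labels says whether replicates were separate passages, so the tests measure the spread between these samples.

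Txnip binds thioredoxin and blocks its reducing activity, and it also draws glucose transporters of the GLUT family off the cell surface. Arrdc4 is its closest relative among the alpha-arrestins, which guide ubiquitin ligases to membrane proteins. MondoA (Mlxip) and ChREBP (Mlxipl) are basic helix-loop-helix factors that sense phosphorylated glucose and bind DNA as dimers with Mlx. Their sites, carbohydrate response elements, are built of a pair of E-boxes, and Txnip is known as one of the most glucose-sensitive genes of many tissues, the kidney tubule included.

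The promoters of the arrestin pair are shown because these elements are where the factors are known to act. The sequences are the 250 bases before the RefSeq transcript start, on the strand of the gene, in GRCm38.p6, at chr3:96557707-96557956 (plus strand) for Txnip and chr7:68749239-68749488 (minus strand) for Arrdc4. Capitals mark the double E-box match in Txnip and the E-box match in Arrdc4.
Txnip: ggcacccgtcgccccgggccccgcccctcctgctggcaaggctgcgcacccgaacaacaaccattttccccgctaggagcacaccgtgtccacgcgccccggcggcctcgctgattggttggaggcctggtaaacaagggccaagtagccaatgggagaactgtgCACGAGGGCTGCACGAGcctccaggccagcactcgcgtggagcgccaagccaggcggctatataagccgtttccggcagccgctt
Arrdc4: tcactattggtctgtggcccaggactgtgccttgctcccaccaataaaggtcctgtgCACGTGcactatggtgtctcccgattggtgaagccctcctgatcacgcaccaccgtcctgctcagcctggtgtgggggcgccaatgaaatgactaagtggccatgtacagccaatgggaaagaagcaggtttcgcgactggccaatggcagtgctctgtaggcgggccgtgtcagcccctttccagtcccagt
Both strands were searched for the double E-box CACGNGNNNNNCNCGNG, the E-box CACGTG, which can lie inside the double form, and CCAAT. The double E-box pattern was found in Txnip, 85 to 69 bases before the start, and was present in 0.365% of 32851 promoter windows of this length. Arrdc4 held no match to it, but held CACGTG at 193 to 188 bases, a motif present in 7.15% of windows. Arrdc4 held 6 CCAAT matches and Txnip 2, where 37.4% of windows held at least 1. CACGTG also lay 40 to 35 bases before the start of Mlx and 98 to 93 bases before the upstream one of both Mlxipl starts, and Mlxip held neither E-box form. A match describes letters in this window only.

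The libraries held 16933343 to 23960860 estimated counts, so that 3 counts, taken as the floor of detection, correspond to 0.125 to 0.177 CPM (counts scaled to the size of the library). Levels are given as TPM (abundance scaled to transcript length and to the library), which can be compared between genes, and changes come from edgeR on the counts. A gene was called where its change exceeded 1.2-fold with a Benjamini-Hochberg adjusted p below 0.05. Of 13234 tested genes edgeR called 1658 after 3 days, of which 702 rose and 956 fell, and 2856 after 6 days, of which 1326 rose and 1530 fell. For 2252 genes, or 17%, the DOX effect differed between the times by the interaction test. The share of the calls at 3 days that were higher was 42.3%, but 29.7% with library size as the only scaling and 12.1% on log2(TPM + 1). The 9 epithelial markers fixed for this work were all detected, and their summed TPM was 2762 to 3336 in the DMSO libraries and 1964 to 2328 in the DOX libraries. Of 10 collecting duct markers only Aqp3, Scnn1a and Gata3 had a mean TPM of at least 1, and Aqp2, the vasopressin-regulated water channel, did not exceed 0.391 TPM in any library. The collecting duct sum was 7.12 to 10.5 TPM in DMSO and 3.16 to 5.36 TPM in DOX. Of 13 fibroblast, endothelial and immune markers only Cd68 reached a mean of 1 TPM, with the list's sum at 18.2 to 26.2 TPM in DMSO and 9.56 to 13.4 TPM in DOX. All 3 sums were lower in every DOX library, and their part in the results below was not tested.

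Txnip (ENSMUSG00000038393, chromosome 3, 96557957 to 96561883, plus strand) was lower in every DOX library than in every DMSO library at both times, and lower still at 6 days. The DMSO libraries of 3 days held 41.5, 35.4, 38.0 and 31.6 TPM and the DOX libraries 14.9, 16.6, 14.4 and 17.0 TPM. At 6 days the DMSO libraries held 22.1, 32.7, 40.9 and 34.8 TPM and the DOX libraries 4.39, 5.73, 3.25 and 3.98 TPM. The groups did not overlap, and the lowest DMSO library, replicate 1 of 6 days, was still above every DOX library. The mean was 36.6 ± 4.18 TPM (SD, n = 4) in DMSO and 15.7 ± 1.23 TPM in DOX at 3 days, 43.0% of the DMSO mean. At 6 days the means were 32.6 ± 7.81 and 4.34 ± 1.04 TPM, and DOX held 13.3% of the DMSO mean. In bulk RNA, fewer cells holding a transcript and less of it per cell cannot be told apart.

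The fitted log2 fold change of Txnip was -1.06 (SE 0.179) at 3 days and -2.82 (SE 0.203) at 6 days, so the difference between the times was -1.76 (SE 0.269) on the log2 scale. Ranked from the most lowered gene, Txnip stood at place 216 of 13234 at 3 days and at place 27 at 6 days. Ranked by mean TPM over all listed genes, it moved from place 3395 in DMSO to 5896 in DOX at 3 days, and from 3917 to 10180 at 6 days. These contrasts chose the gene and are given as a description. Between 158 and 1915 reads per library stand behind the values. Leaving out any single library kept the log2 fold change between -1.16 and -0.94 at 3 days and between -2.96 and -2.71 at 6 days. The antisense gene Gm15441 shares 606 exonic bases with Txnip and had 0 to 7 counts per library.

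**Figure D1:**
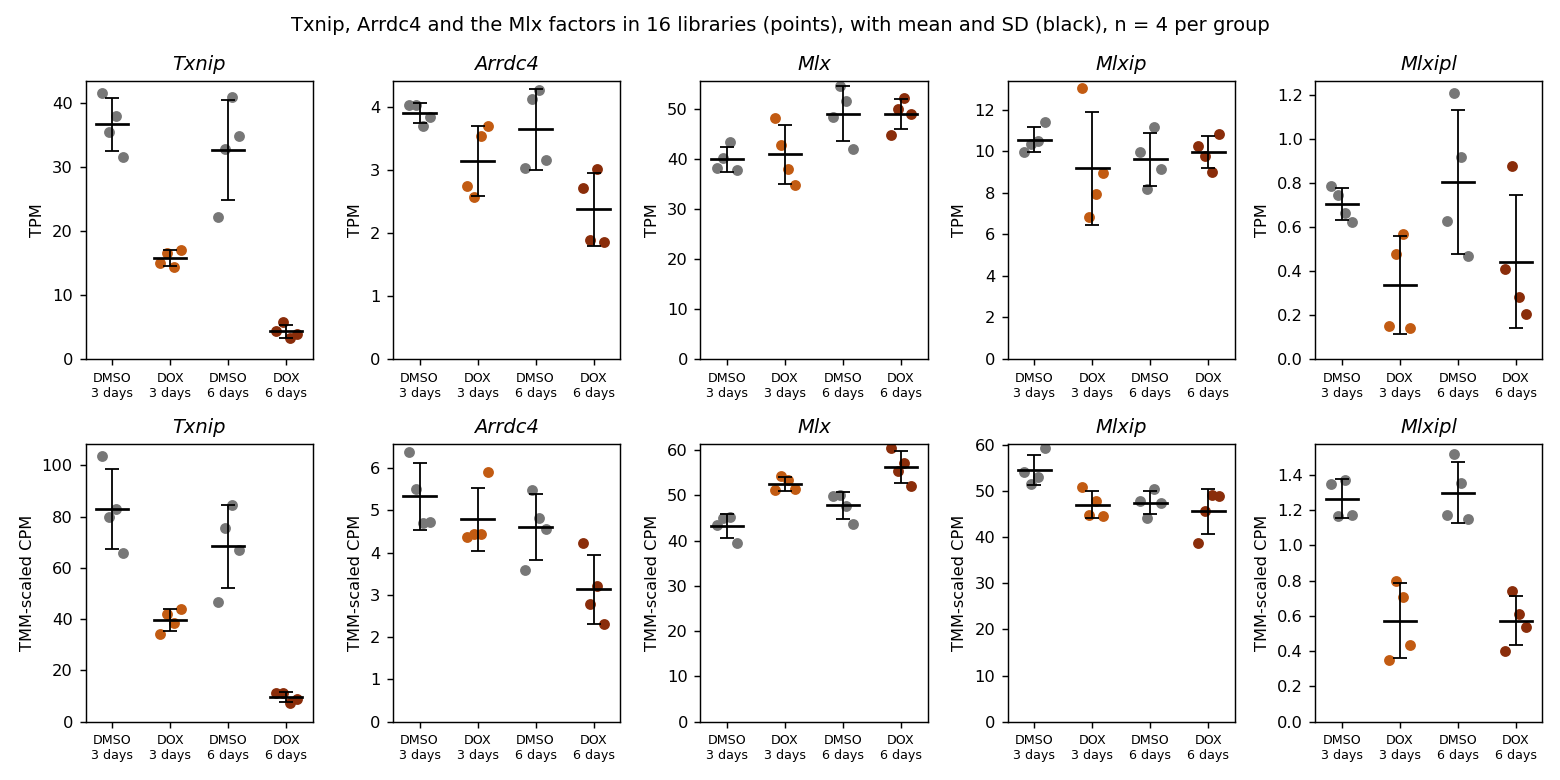
Levels of Txnip, Arrdc4, Mlx, Mlxip and Mlxipl in the 16 libraries, as TPM (upper row) and as TMM-scaled CPM (lower row), on axes that start at 0. Points are libraries and black marks show the mean and SD of 4 libraries. Txnip in DOX lies at 14.4 to 17.0 TPM at 3 days and at 3.25 to 5.73 TPM at 6 days, under all DMSO libraries, while Mlx is separated by treatment on the CPM scale only.

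Arrdc4 (ENSMUSG00000042659, chromosome 7, 68736995 to 68749241, minus strand) was a far less abundant transcript and its DOX difference was smaller. In DMSO it was at 4.04, 4.02, 3.70 and 3.83 TPM at 3 days, and in DOX at 2.75, 2.57, 3.55 and 3.70 TPM. At 6 days it was at 3.03, 4.12, 4.27 and 3.16 TPM in DMSO and at 2.72, 1.89, 3.02 and 1.86 TPM in DOX. The TPM values of the treatments did not overlap, by a margin of 0.005 TPM at 3 days and 0.008 TPM at 6 days, but the CPM values did. The highest CPM of the DOX libraries of 3 days, 5.90 in replicate 4, exceeded 3 of the 4 DMSO libraries, and DMSO replicate 1 of 6 days, at 3.58 CPM, was below DOX replicate 1, at 4.22 CPM. The DOX means were 80.6% of DMSO at 3 days and 65.1% at 6 days in TPM, and the fitted log2 fold changes were -0.15 (SE 0.166) and -0.57 (SE 0.173). Arrdc4 was not called at either time with all libraries. At 6 days it was called without DMSO replicate 1 of 6 days (log2 fold change -0.67), without DOX replicate 1 of 6 days (-0.74), when length and GC content were corrected for (-0.59), and when no minimum fold was asked. With a replicate block added to that correction it was at -0.60 and not called.

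The arrestin pair stood in a different proportion under DOX. Txnip held 9.39 ± 1.04 (SD, n = 4) times the TPM of Arrdc4 in DMSO at 3 days and 8.96 ± 1.66 times at 6 days. In DOX the ratio was 5.13 ± 1.03 at 3 days and 1.96 ± 0.831 at 6 days, where 1 library came down to 1.08. The DOX libraries lay at 4.07 to 6.43 and 1.08 to 3.03, and the DMSO libraries at 7.32 to 11.0, without overlap. The ratio rests on the Txnip difference by which that gene was chosen, so it is given as a description and adds no separate result. Of these promoter windows, that of Txnip held the double E-box letters, that of Arrdc4 held CACGTG, and both held CCAAT. Whether these letters bear on the levels was not tested.

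Mlx (ENSMUSG00000017801, chromosome 11, 101087277 to 101092207, plus strand), the shared dimer partner, was the most abundant of the factors, and its level per transcript length overlapped between treatments. Its TPM was 38.3, 40.3, 43.3 and 37.9 in DMSO and 48.3, 42.8, 38.0 and 34.8 in DOX at 3 days. At 6 days it was 48.4, 54.6, 51.6 and 41.9 in DMSO and 44.8, 50.0, 52.2 and 49.0 in DOX. The ratio of the means was 1.03 at 3 days and 0.998 at 6 days. On the CPM scale every DOX library was above every DMSO library of its time, at 51.1 to 54.3 against 39.6 to 45.3 CPM at 3 days and at 52.0 to 60.4 against 43.7 to 50.1 CPM at 6 days. The fitted log2 fold changes were 0.28 (SE 0.0625) and 0.23 (SE 0.0618), with 0.18 at 3 days after the correction for length and GC content and 0.03 on log2(TPM + 1). Against the fold of 1.2 Mlx was not called at either time, and with no minimum fold it was called at both. Its counts per TPM, relative to the median gene of the same library, were 0.566 in DMSO and 0.594 in DOX at 3 days, and 0.529 and 0.595 at 6 days. It shares 385 exonic bases with Psmc3ip on the opposite strand, which was at 33.5 to 43.7 CPM on average, and whether the quantification used the strand is not given in the sources used here.

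Mlxip, the gene of MondoA (ENSMUSG00000038342, chromosome 5, 123394798 to 123457932, plus strand), differed little between treatments. It was at 9.98, 10.3, 10.5 and 11.4 TPM in DMSO and at 13.0, 6.83, 7.93 and 8.93 TPM in DOX at 3 days. DOX replicate 1 was the highest library of all 16 and the other 3 DOX libraries were below every DMSO library of that time. At 6 days DMSO was at 8.18 to 11.1 TPM and DOX at 9.02 to 10.8 TPM, with overlap. In CPM every DOX library of 3 days, at 44.7 to 50.8, was below every DMSO library of that time, at 51.6 to 59.2. At 6 days the CPM values overlapped. The fitted log2 fold changes were -0.21 (SE 0.0725) and -0.06 (SE 0.0727), not called, and -0.03 at 3 days after the correction for length and GC content. With no minimum fold Mlxip was called at 3 days and not at 6 days. Without DOX replicate 1 the fitted log2 fold change at 3 days was -0.25 (SE 0.0746).

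Mlxipl, the gene of ChREBP (ENSMUSG00000005373, chromosome 5, 135089890 to 135138382, plus strand), lay near the minimum of 1 CPM asked for testing. DMSO libraries held 22, 28, 24 and 27 reads and DOX libraries 7, 16, 13 and 8 reads at 3 days. At 6 days the reads were 21, 33, 25 and 22 in DMSO and 8, 18, 13 and 11 in DOX. The treatments did not overlap in reads or CPM at either time. In TPM they did not overlap at 3 days, with 0.705 ± 0.0736 in DMSO and 0.336 ± 0.223 in DOX, but overlapped at 6 days, with 0.807 ± 0.327 and 0.444 ± 0.302. The fitted log2 fold changes were -1.13 (SE 0.257) and -1.16 (SE 0.252), and the difference between the times was -0.04 (SE 0.366). The minimum of 1 CPM in at least 4 libraries was met by DMSO alone, at 1.15 to 1.52 CPM, where no DOX library exceeded 0.797 CPM, and with 1 CPM asked of all 16 libraries Mlxipl was not tested. On log2(TPM + 1), which compresses so low a gene, the log2 fold changes were -0.37 and -0.33, and on log2(TPM + 0.1) they were -1.04 and -0.81. Mlxipl was not called by limma on either TPM scale at either time, nor by DESeq2 at 3 days (-1.13).

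**Figure D2:**
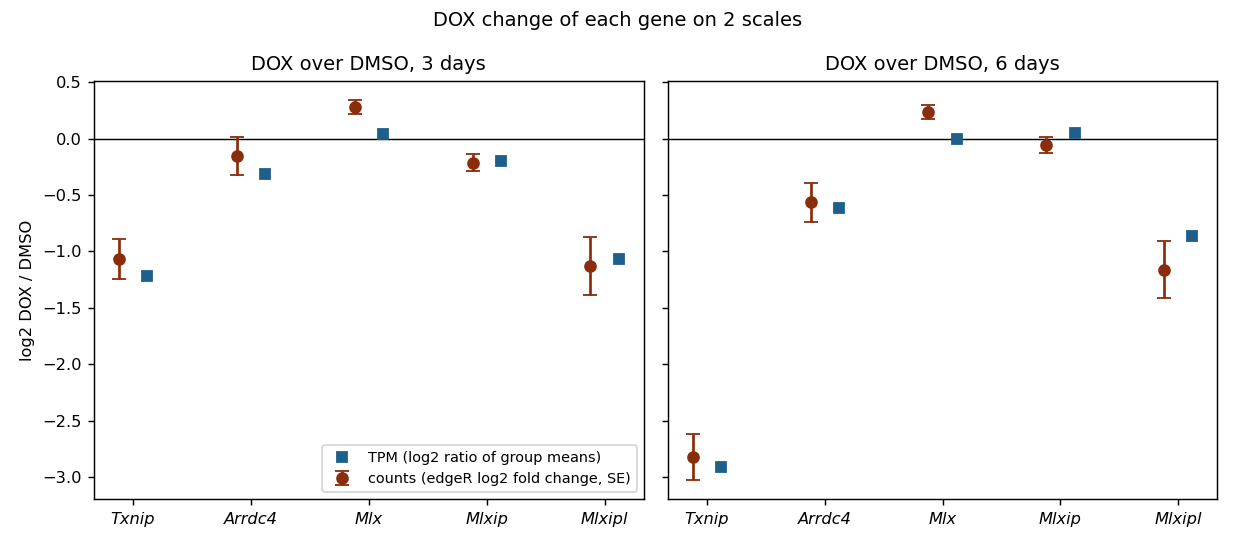
DOX over DMSO for each gene at 3 days (left) and 6 days (right), on the log2 scale. Circles are edgeR log2 fold changes of counts with their SE and squares are log2 ratios of the group mean TPM, with 4 libraries per group. Txnip reaches -2.82 at 6 days from -1.06 at 3 days, Mlxipl stays at -1.13 and -1.16, and Mlx is at 0.28 and 0.23 by counts but at 0.04 and -0.003 by TPM.

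Of the 5 genes, Txnip and Mlxipl were past the call threshold at both times, both lower. For Txnip this held in every alternative run. Mlxipl entered the tested genes only through its DMSO libraries, so its count among the called genes carries no weight. Of all tested genes 12.5% were called at 3 days, with 5.3% rising and 7.22% falling. At 6 days it was 21.6%, with 10% rising and 11.6% falling, and nothing is read from this count because the choice used these contrasts. The CPM values of the treatments did not overlap for 4 of the 5 at 3 days, against 38.6% of all tested genes, and for 3 of the 5 at 6 days, against 43%. Nothing is read from these counts either, since they include Txnip, chosen by its DOX difference, and Mlxipl, tested only through its DMSO libraries. The order of levels per transcript length changed with DOX only through Txnip. In DMSO at 3 days Mlx (39.9 ± 2.50 TPM) and Txnip (36.6 ± 4.18 TPM) overlapped at the top, followed by Mlxip (10.6 ± 0.596), Arrdc4 (3.90 ± 0.161) and Mlxipl. In DOX at 6 days Mlx (49.0 ± 3.09 TPM) was followed by Mlxip (9.96 ± 0.762), Txnip (4.34 ± 1.04), Arrdc4 (2.37 ± 0.585) and Mlxipl, with no overlap between these neighbours. Mlxipl made up 6.29% ± 0.913 of the summed Mlxip and Mlxipl TPM in DMSO at 3 days and 4.00% ± 3.06 in DOX, and 7.83% ± 3.56 and 4.25% ± 2.80 at 6 days. These shares overlapped between treatments at both times. Mlx exceeded the sum of both partners 3.56 ± 0.303 times in DMSO and 4.46 ± 0.998 times in DOX at 3 days, and 4.76 ± 0.720 and 4.74 ± 0.612 times at 6 days.

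Time in culture was a comparison the choice of genes had not used. Between DMSO libraries of 6 and 3 days the log2 fold changes were -0.27 (SE 0.173) for Txnip, -0.20 (SE 0.166) for Arrdc4, 0.14 (SE 0.0627) for Mlx, -0.20 (SE 0.0724) for Mlxip and 0.05 (SE 0.231) for Mlxipl. None of the 5 passed the edgeR test (adjusted p = 1 for each), and Txnip overlapped with 31.6 to 41.5 TPM at 3 days and 22.1 to 40.9 TPM at 6 days. Among all tested genes edgeR called 0, or 0%, with 172 genes at an unadjusted p under 0.05, and DESeq2 and limma also called 0. That test asks for a change beyond 1.2 fold. The interval of the Txnip change (2 SE either side), -0.62 to 0.07, includes 0, while those of Mlx, 0.02 to 0.27, and Mlxip, -0.35 to -0.06, do not.

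Libraries treated alike were used to ask whether the genes vary together apart from the treatment. Over 16 libraries, with each group's mean log2 CPM removed, Txnip and Arrdc4 had a Pearson r of 0.604 (permutation p = 0.0348, two-sided) and a Spearman rho of 0.579 (permutation p = 0.0496). After adjustment over the 10 pairs the p-values were 0.131 and 0.156, and r was 0.616 without the 2 libraries farthest from the median of Txnip. In the 8 DMSO libraries r was 0.859 (exact permutation p = 0.0260, adjusted 0.260) and in the 8 DOX libraries it was 0.373 (exact permutation p = 0.500, adjusted 0.806). Without the 2 farthest libraries of each set these r were 0.654 and 0.675, so no difference between treatments is read from them. On log2(TPM + 1), over all 16 libraries, r was 0.046 (permutation p = 0.878), so the relation depended on the scale. Mlx and Mlxip had the most negative r, -0.636 (permutation p = 0.0232, adjusted 0.131), followed by Arrdc4 and Mlxip at -0.635 (permutation p = 0.0394, adjusted 0.131), which came to -0.381 without the 2 farthest libraries. Txnip with Mlx, Mlxip and Mlxipl had r of 0.171, -0.476 and 0.250, and none of the 10 pairs passed after adjustment. The negative values depended on the scale too. On log2(TPM + 1) r was 0.239 for Mlx and Mlxip, -0.138 for Arrdc4 and Mlxip, and -0.0387 for Txnip and Mlxip.

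**Figure D3:**
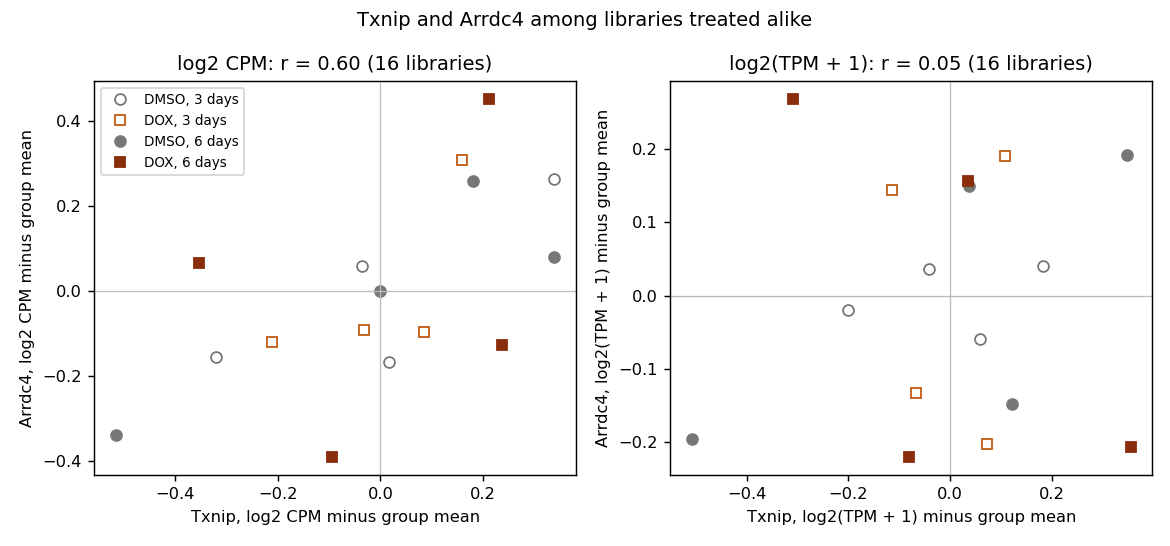
Txnip (horizontal) against Arrdc4 (vertical) in 16 libraries, each as the distance from its own group mean, on log2 CPM (left) and log2(TPM + 1) (right). Each mark is 1 library, with its shape and fill giving treatment and time. The points rise together on the left (r = 0.60) and show no slope on the right (r = 0.05).

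Over all 16 libraries, the treatment included, the tested gene whose log2 CPM ran closest to Txnip was Pclaf, which encodes a PCNA-binding protein of DNA replication, with r = 0.986 and log2 fold changes of -0.42 (SE 0.0771) at 3 days and -1.39 (SE 0.0796) at 6 days. It was followed by Gm43305 (r = 0.986), the chromatin remodeller Chd9 (0.985), Gm42427 (0.980), Omp (0.980), Id4, an inhibitor of helix-loop-helix factors (0.980), Tnnc2 (0.975) and the long non-coding RNA Lncenc1 (0.974). Among these 8 genes Id4 came nearest to Txnip in size, at -1.15 (SE 0.201) and -2.58 (SE 0.239), and Lncenc1 was at -1.04 (SE 0.156) and -2.28 (SE 0.177). Both were low. At 6 days the means in DMSO and DOX were 3.16 and 0.520 CPM for Id4 and 3.47 and 0.712 CPM for Lncenc1. Their DOX means of 6 days thus lay under 1 CPM. The genes running most opposite were Ttc17 (r = -0.986), Dis3l2 (-0.983), Abcf2 (-0.983) and the acetyltransferase Kat2a (-0.982). Arrdc4 itself had r = 0.814 with Txnip, and 1103 other tested genes had a higher r. For Arrdc4 the closest were the kinetochore gene Cenpk (r = 0.927), the interleukin-1 receptor antagonist Il1rn (0.925), Polr2k (0.925), Gm46223 (0.918) and Gm32461 (0.912). These values share the treatment difference and the libraries, and are given as a description.

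Genes around the arrestins and their factors were taken from 6 lists of textbook members, 73 genes of which 58 were tested. At 3 days 14 of the 58 (24.1%) were called, of which 11 fell, and at 6 days 22 (37.9%), of which 17 fell, against the 12.5% and 21.6% of all genes. The median log2 fold change was -0.19 at 3 days and -0.22 at 6 days, where that of all tested genes was 0.003 and -0.0006. The count at 3 days was 9 without DMSO replicate 4 of 3 days and also without DOX replicate 3 of 3 days. The 17 that fell at 6 days include Slc2a2, which entered the tested genes through its DMSO libraries. The lists were made with earlier results of these libraries known, and no test of a list as a whole was made.

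Of the other alpha-arrestins, 3 of 4 were tested and Arrdc3, which restrains beta-adrenergic receptors and adipose energy use, was called lower at both times. Arrdc3 fell from 73.3 to 48.1 CPM at 3 days (log2 fold change -0.61, SE 0.0739, edgeR adjusted p = 0.000317) and from 75.7 to 37.5 CPM at 6 days (-1.01, SE 0.0746, edgeR adjusted p = 1.37e-08). Its call was kept in all alternatives run. Arrdc1 (-0.21 and 0.02) and Arrdc2 (-0.31 and -0.39) were not called. Among the 3 tested, Arrdc3 alone was called with all libraries. Txnip and Arrdc4 are not part of this count, since for the members the contrasts are a description.

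All 10 genes of the thioredoxin system, whose first member is the protein that Txnip binds, were tested. At 3 days 1 rose and 1 fell, and at 6 days 1 rose and 3 fell. Cytosolic thioredoxin Txn1 was not called at 3 days (0.03, SE 0.0788) and fell at 6 days from 267 to 197 CPM (-0.44, SE 0.0792, edgeR adjusted p = 0.0243). That call was lost without DMSO replicate 2, DOX replicate 2 or DOX replicate 4 of 6 days, with adjusted p of 0.0612 to 0.0638 by edgeR. It was also lost with DESeq2, with the filter of 1 count in any library, and after the correction for length and GC content with or without the replicate block. The mitochondrial form Txn2 moved the other way, from 81.4 to 112 CPM at 3 days (0.46, SE 0.0622, edgeR adjusted p = 0.00575) and from 84.2 to 113 CPM at 6 days (0.43, SE 0.0620, edgeR adjusted p = 0.0106, and 0.0528 without DMSO replicate 4 of 6 days). The peroxiredoxins Prdx1 and Prdx5, which thioredoxin reduces, fell at 6 days by 0.54 (SE 0.0855, edgeR adjusted p = 0.00319) and by 0.55 (SE 0.0856, edgeR adjusted p = 0.00250) on the log2 scale. On the TPM scale with limma, no gene of this list was called at 3 days. Txn2 was not called on those scales at 6 days either, nor by DESeq2 at 6 days. Txn1 and Prdx1 have near-identical processed pseudogenes, so the split of their reads is less certain.

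Of 22 genes of glucose uptake and phosphorylation 12 were tested. At 3 days 1 fell, and at 6 days 3 rose and 3 fell, but limma on either TPM scale called only 1 at 6 days. Hexokinase Hk1, which makes the glucose-6-phosphate that the Mlx factors sense, fell from 293 to 209 CPM at 3 days (-0.48, SE 0.0655, edgeR adjusted p = 0.00425) and from 282 to 180 CPM at 6 days (-0.65, SE 0.0657, edgeR adjusted p = 1.11e-05). The main transporter gene Slc2a1, whose protein Txnip is known to take off the membrane, was not called, at -0.15 (SE 0.112) and -0.13 (SE 0.112). The transporter Slc2a2 was at 1.34 CPM in DMSO and 0.556 CPM in DOX at 6 days (-1.28, SE 0.406, edgeR adjusted p = 0.0348). Its DOX means, 0.561 CPM (SD 0.154) at 3 days and 0.556 CPM (SD 0.230) at 6 days, lay under the minimum of 1 CPM. It thus entered the tested genes through its DMSO libraries, and its place among the genes that fell carries no weight. The call was also lost without DMSO replicate 2, DOX replicate 3 or DOX replicate 4 of 6 days (edgeR adjusted p up to 0.306), with DESeq2 and on both TPM scales. Slc2a9, a urate and hexose transporter, rose from 1.56 to 2.64 CPM (0.76, SE 0.234, edgeR adjusted p = 0.0451), a call lost without any one of 10 libraries (edgeR adjusted p up to 0.150), which were DMSO replicates 2 and 3 and DOX replicates 2, 3 and 4 of 3 days, and DMSO replicates 2 and 3 and DOX replicates 1, 3 and 4 of 6 days. It was lost with DESeq2, on both TPM scales and after the correction for length and GC content too.

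Among known targets of ChREBP other than the arrestins, more were called lower than higher, by counts that moved with the processing. Of 15 listed genes 13 were tested, where 1 rose and 3 fell by 3 days and 1 rose and 5 fell by 6 days, with medians of -0.31 and -0.41. Fatty acid synthase Fasn fell from 276 to 167 CPM at 3 days (-0.72, SE 0.0790, edgeR adjusted p = 3.15e-05) and from 235 to 147 CPM at 6 days (-0.67, SE 0.0791, edgeR adjusted p = 4.90e-05). After the correction for length and GC content Fasn was no longer called at 3 days, at an edgeR adjusted p of 0.0697. Rgs16, a brake on G protein signalling, fell by 0.95 (SE 0.205, edgeR adjusted p = 0.00725) and by 1.31 (SE 0.218, edgeR adjusted p = 0.000239) on the log2 scale. The fatty acid elongase Elovl6 fell by 0.61 (SE 0.130, edgeR adjusted p = 0.0193) and by 0.59 (SE 0.132, edgeR adjusted p = 0.0157). Its call at 3 days was lost without DMSO replicate 3, DMSO replicate 4 or DOX replicate 3 of 3 days (edgeR adjusted p up to 0.0744), and at 6 days without DMSO replicate 4 (edgeR adjusted p = 0.0626). DESeq2 and limma on log2(TPM + 1) did not call Elovl6 at either time, limma on log2(TPM + 0.1) did not at 6 days, and the correction for length and GC content ended its call at 3 days. The hormone gene Fgf21 went the other way, at 1.69 and 2.69 CPM at 3 days (0.66, SE 0.177, edgeR adjusted p = 0.0410, lost without any one of 7 libraries, at up to 0.151) and at 1.70 and 3.05 CPM at 6 days (0.83, SE 0.175, edgeR adjusted p = 0.00374). Those 7 were DMSO replicates 1, 3 and 4 and DOX replicates 2, 3 and 4 of 3 days and DOX replicate 2 of 6 days. The call of Fgf21 at 3 days was lost with DESeq2, on both TPM scales, with the replicate block and after the correction for length and GC content as well. The list had 1 call at 3 days, lower, after the correction for length and GC content, 2 with DESeq2 and 2 on log2(TPM + 1), all lower. Count ranges for this list at 3 days were 2 to 4 when libraries were left out one at a time, the lowest without DMSO replicate 3, DMSO replicate 4 or DOX replicate 3 of that time.

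**Figure D4:**
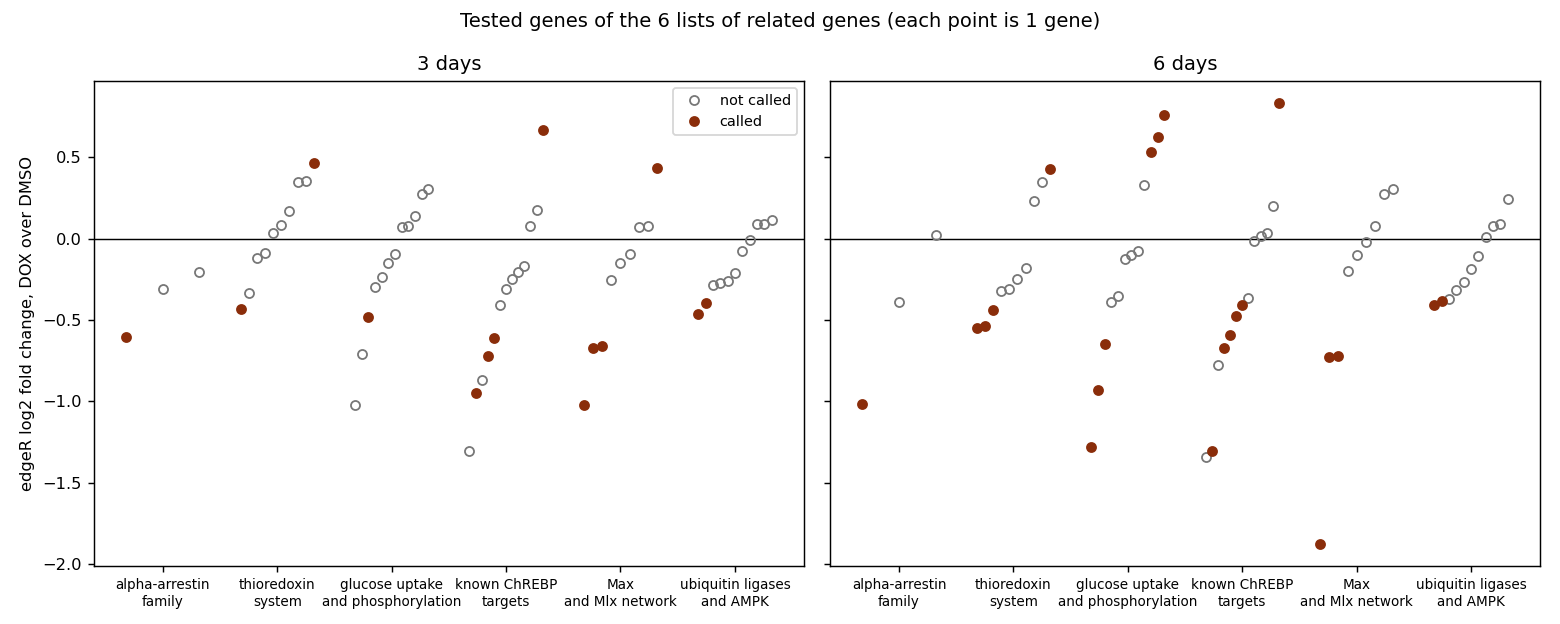
edgeR log2 fold changes of DOX over DMSO for the 58 tested genes of the 6 lists, at 3 days (left) and 6 days (right). Each point is 1 gene, filled where it was called. Called genes number 14 at 3 days and 22 at 6 days, with 11 and 17 of them below 0, and Mxd3 is the lowest of the called genes at 6 days at -1.87.

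Mlx belongs to a network of dimerising factors around Max, of which 9 of 10 were tested, where 1 rose and 3 fell by 3 days and 3 fell by 6 days. The repressor partners Mxd1 and Mxd3 were both lower. Mxd1, which can pair with Mlx as well as Max, fell from 29.8 to 18.9 CPM (-0.66, SE 0.0712, edgeR adjusted p = 5.04e-05) and from 30.5 to 18.4 CPM (-0.73, SE 0.0708, edgeR adjusted p = 2.93e-06). Mxd3 fell from 6.37 to 4.00 CPM (-0.67, SE 0.153, edgeR adjusted p = 0.0172) and from 6.22 to 1.69 CPM (-1.87, SE 0.168, edgeR adjusted p = 4.49e-08). Its call at 3 days was lost without DMSO replicate 4, DOX replicate 2 or DOX replicate 3 of 3 days, at edgeR adjusted p of 0.0507 to 0.0609, and with DESeq2. Myc rose from 103 to 140 CPM at 3 days (0.43, SE 0.0491, edgeR adjusted p = 0.00369) and was at 113 and 140 CPM at 6 days, not called. Its call at 3 days was lost when library size was the only scaling and on both TPM scales, with log2 fold changes down to 0.22. Those TPM scales also lost the calls of Mxd1 at 3 days and Mycn at 6 days. Mycn, much less abundant, fell by 1.02 (SE 0.150, edgeR adjusted p = 0.000225) and by 0.72 (SE 0.146, edgeR adjusted p = 0.00419). Max itself was at -0.09 (SE 0.0577) and -0.02 (SE 0.0573).

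Of 12 genes of the ubiquitin ligases that arrestins recruit and of the energy sensor AMPK, which marks Txnip for breakdown, 11 were tested, and 2 were called lower at each time. Nedd4l fell from 106 to 77.0 CPM at 3 days (-0.46, SE 0.0620, edgeR adjusted p = 0.00556) and was not called at 6 days (-0.31, SE 0.0617). Its call at 3 days was lost after the correction for length and GC content (edgeR adjusted p up to 0.180). Itch, the ligase known to ubiquitinate Txnip, was at -0.39 (SE 0.0608, edgeR adjusted p = 0.0445) and -0.37 (SE 0.0606, edgeR adjusted p = 0.0546), and its call at 3 days was lost without any one of 10 libraries, every DMSO library of 3 days and DOX replicates 2, 3 and 4 of both times (edgeR adjusted p up to 0.177). It was called at 3 days in 9 of 28 alternatives. At 6 days it was called without any one of 4 libraries, which were DOX replicates 1 and 4 of 3 days and DMSO replicates 1 and 2 of 6 days. The AMPK subunit Prkab1 fell at 6 days from 114 to 86.0 CPM (-0.41, SE 0.0508, edgeR adjusted p = 0.00638). The catalytic subunit Prkaa1 was at -0.38 (SE 0.0613, edgeR adjusted p = 0.0432), lost without any one of replicates 2, 3 and 4 of either treatment at 6 days (edgeR adjusted p up to 0.129). Prkaa1 was called in 14 of 28 alternatives, and was lost too with DESeq2, on both TPM scales, with the filter of 1 count in any library, with the replicate block, with only the 8 libraries of that time and after the correction for length and GC content. At 6 days none of this list was called by limma on log2(TPM + 1) or by edgeR with the filter of 1 count in any library. With the correction for length and GC content none was called at 3 days.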

How the data were processed

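RNA was sequenced as poly(A)-selected, strand-directional paired reads from 16 libraries of mIMCD3 cells. The authors aligned reads to GRCm38.p6 with STAR and quantified transcripts with salmon, per the labels and methods. They deposited a table of estimated counts per gene (54393 genes) and a table of TPM values (53354 genes), and the TPM table was used for levels only. Groups came from the sample titles, 4 libraries each. Rounded to integers, the counts of genes reaching 1 CPM in 4 or more libraries (13234 genes) were scaled by TMM and fitted in edgeR 4.0.16 (R 4.3.3) by a robust quasi-likelihood model with 1 mean per group. Contrasts of DOX with DMSO, and of time in DMSO, were tested by glmTreat against a fold of 1.2 with Benjamini-Hochberg adjustment over all tested genes, and the difference between times by glmQLFTest. SE is the size of the log2 fold change over the root of the F statistic. Floors and counting limits cover counting error only. The scripts were tested on simulated data.

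The members and gene lists were chosen with earlier results of these data known. For the members the DOX contrasts are therefore a description with no test, and correlations within groups used permutation of libraries inside each group. The genes named were the members, up to 4 called genes per list with the largest change at 6 days, the genes most like Txnip (8 highest, 4 lowest) and Arrdc4 (5 highest), and tested genes near either, except a few that are not reported here, with Slc2a1, Max, Arrdc1, Arrdc2 and Gm15441 named after their values were seen. Gene positions are from GENCODE M21 and promoters from RefSeq, which matched all 5 members. Alternatives were other scalings, filters, DESeq2 1.42.0, limma 3.58.1 on log2(TPM + 1) and log2(TPM + 0.1), no fold threshold, a replicate block, 8 libraries at a time and leaving out each library. Correcting for length and GC content of the transcripts (splines with 5 degrees of freedom per library) was an alternative chosen after seeing the data.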

Additional observations from a re-analysis of the deposited data

Results flagged for a closer look

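Of 40 groups of 4 libraries tested for a stray library over the 5 genes in TPM and CPM, 1 stood out, where chance gives about 1 in 20. Arrdc4 in the DOX libraries of 3 days was at 4.36, 4.43, 4.45 and 5.90 CPM, and the gap below replicate 4 took up 0.941 of the range.

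The DOX effect differed between 6 and 3 days for 5 of the named pathway genes by edgeR's interaction test adjusted over all genes. These genes were named partly for a large change at 6 days, which favours such a difference. Over whole lists it was called for 1 of 3 alpha-arrestins, 5 of 10 thioredoxin genes and 1 of 12 glucose genes. It was called for 0 of 13 ChREBP targets, 2 of 9 Max network genes and 2 of 11 ligase and AMPK genes. Of all tested genes 17% were called. The difference in log2 fold change was -0.41 for Arrdc3 (edgeR adjusted p = 0.0126), -0.47 for Txn1 (edgeR adjusted p = 0.00759), -0.45 for Prdx1 (edgeR adjusted p = 0.0150) and -0.43 for Prdx5 (edgeR adjusted p = 0.0196). It was -1.20 for Mxd3 (edgeR adjusted p = 0.00208). In each of these 5 genes the change was more negative at 6 days, the time whose change served to name them. Among the neighbours of Txnip the RNA-binding protein gene Rbm8a differed between times by -0.28 (edgeR adjusted p = 0.0181), from 0.16 (SE 0.0546) at 3 days to -0.12 (SE 0.0546) at 6 days, with neither change called on its own.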

How the results depend on the processing

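The Txnip and Arrdc4 values kept their direction in every alternative run, and no value of the 5 genes that had been called changed sign. Leaving out single libraries gave log2 fold changes at 3 and 6 days of -0.27 to -0.06 and -0.74 to -0.45 for Arrdc4, 0.24 to 0.30 and 0.19 to 0.27 for Mlx, -0.25 to -0.17 and -0.09 to 0.01 for Mlxip, and -1.34 to -0.95 and -1.32 to -1.03 for Mlxipl. On log2(TPM + 1) and log2(TPM + 0.1) Mlx was at 0.0274 and 0.0278 at 3 days and at 0.00146 and 0.00157 at 6 days, and Mlxip at 0.0518 and 0.0571 at 6 days. Mlxipl was at -0.37 (3 days) and -0.33 (6 days) on log2(TPM + 1), and at -0.81 at 6 days on log2(TPM + 0.1). As a log2 ratio of means Mlx was at 0.28 and 0.23 in CPM in place of TPM. With the length and GC correction, without and with the replicate block, Mlx at 3 days was at 0.181 and 0.180 and Mlxip at -0.0284 and -0.0280. The cause of these shifts was not tested.

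Calls over all genes at 3 days numbered 1019 with DESeq2 (1962 at 6 days), 701 and 1307 (6 days) with limma on log2(TPM + 1), 909 and 1527 on log2(TPM + 0.1), and 5982 and 6702 with no fold threshold. For DMSO over time the count was 62 with no fold threshold and 6 with the filter of 1 count in any library. In the 6 lists, 58 tested genes gave at 3 days 9 calls with DESeq2, 7 with limma on log2(TPM + 1), 30 with no fold threshold and 9 with the length and GC correction, and at 6 days 11, 13 and 40 with limma on log2(TPM + 1), on log2(TPM + 0.1) and with no fold threshold. The higher share at 6 days was 28.8% on log2(TPM + 1), 29.3% on log2(TPM + 0.1) and 46.4% in edgeR, and at 3 days 11.4% on log2(TPM + 0.1).

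Leaving out single libraries gave 1366 to 2295 calls at 3 days, 2545 to 3064 at 6 days, 0 for DMSO over time, and 9 to 16 and 18 to 25 in the lists. The difference between times had 1369 to 3787 calls, against 2252 with all libraries. It was 3787 without DOX replicate 1 of 3 days, 1369 without DMSO replicate 4 of 3 days, 1480 without DOX replicate 2 of 3 days and 1467 without DMSO replicate 2 of 6 days. DESeq2 and limma were not run for it. Same-numbered libraries of DMSO and DOX at each time, and of DMSO across times, did not deviate together (r from -0.433 to 0.178). The main fit held no replicate block, and these r cannot tell whether same-numbered libraries shared a passage. A replicate block gave 1570, 2767 and 1768 calls at 3 days, at 6 days and for the difference, with Txnip at -1.06 and -2.82. Mlxipl rests on 7 to 33 reads per library.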

Other observations

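The genomic surroundings of the arrestin pair were read from the same table. Within 100 kb of Txnip 17 genes are annotated and 6 were tested. Lix1l, 39266 bases away, rose at 6 days from 4.19 to 8.88 CPM (log2 fold change 1.09, SE 0.152, edgeR adjusted p = 5.55e-05) and was at 0.54 (SE 0.158, edgeR adjusted p = 0.0923) at 3 days. Its call was kept when libraries were left out one at a time. Of all tested genes 21.6% were called at 6 days, so this call among 6 tested neighbours is not read as a trait of the locus. The RNA polymerase III subunit gene Polr3gl (15989 bases away), the pseudogene 6330549D23Rik, Rbm8a and the integrin gene Itga10 were not called at either time. Their log2 fold changes at 6 days were 0.09 (SE 0.0687), 0.01 (SE 0.183), -0.12 (SE 0.0546) and 0.59 (SE 0.187). Around Arrdc4 2 genes are annotated within 100 kb and 0 were tested.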
